A study of Mus musculus with 12 samples.

Results

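The genes described here are 10 enzymes that release arachidonic acid or turn it into lipoxygenase products and prostanoids, out of 24147 genes counted in each library. They are Pla2g4a, the lipoxygenase genes Alox15, Alox12 and Alox5, the cyclooxygenase genes Ptgs1 and Ptgs2, the synthase genes Ptges, Ptgds and Ptgis, and the breakdown gene Hpgd. Each was found by its symbol in the deposited counts, all 10 were present, and all 10 passed the filter on low counts. The 10 were chosen by hand as a pathway with results of these data already known, among them the level of Alox15 at 48 h against 0 h in FNcKO. The values over time are therefore given as a description, and nothing is drawn from the tests of these 10 genes over time. The comparisons of the genotypes did not enter the choice and were tested.

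RNA came from mouse lens capsules and the lens epithelial cells (LECs) attached to them, after the fiber cells had been taken out of the lens through a cut in the cornea, a model of cataract surgery. Capsules were taken at 0 h or 48 h after that operation from adult mice 2 months old, with 3 libraries for each of 4 groups. WT mice were wild type of strain C57BL/6, and FNcKO mice, of mixed strain (C57BL/6, 129 and FVB/N together), carried a conditional knockout of fibronectin. Genotype and strain background coincide, so their effects cannot be told apart. All 4 groups had the fiber cells removed, and no group left without surgery was among the samples. The labels give neither the Cre line behind the knockout nor the number of lenses or animals in a library. The design text calls the 3 libraries of a group biological triplicates. The series asks what part fibronectin has in posterior capsular opacification, a clouding of the capsule after such surgery.

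Libraries held 8368160 to 10862573 counts. Levels are counts per 1000000 (CPM) after TMM scaling. A floor of 3 counts, set here for a count of 0 and not a strict limit, corresponded to 0.286 to 0.430 CPM. Fn1, the targeted gene, was at 19.0, 23.1 and 15.5 CPM in WT at 0 h, 16.8, 9.81 and 8.32 in FNcKO at 0 h, 1515, 528 and 979 in WT at 48 h and 146, 298 and 688 in FNcKO at 48 h, so the genotypes overlapped at both times. Its reads do not tell recombined from intact transcripts here. A combined table deposited beside the library files has 9 count columns, of which 8 match their own library's file, whereas that for WT 0 h replicate 1 equals FNcKO 0 h replicate 1, and which of the labels is right was not tested. The library files were used. Without both 0 h replicate 1 libraries, 0 of the 10 genes were called in any comparison of the genotypes, and of the calls over time those of Alox5 in WT (edgeR, adjusted p = 0.0876) and of Ptges in WT (0.0805) and FNcKO (0.089) were lost. The summed level of 6 lens epithelium markers, Foxe3 and Pax6 among them, ran from 4873 to 10426 CPM at 0 h and from 2754 to 5157 at 48 h, and all 6 had counts in every group. The summed level of 9 lens fiber markers ran from 33095 to 91207 CPM at 0 h and from 1972 to 29260 at 48 h. In such bulk RNA, fewer cells of a type and less RNA per cell cannot be told apart.

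Cytosolic phospholipase A2, the product of Pla2g4a, frees arachidonic acid from membrane lipids. Lipoxygenases add oxygen to it and lead to hydroxy fatty acids, leukotrienes and lipoxins, while the cyclooxygenases turn it into prostaglandin H, from which separate synthases make prostaglandins E, D and prostacyclin. Ptgs2 is known as an early gene of inflammation and wounding, and prostaglandins are known to act in the injured eye.

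Promoters of 8 of the 10 genes were found in the RefSeq table of build GRCm38.p6 (mm10). The 250 bases before the RefSeq start are shown for Ptgs2, whose level differed most over time among the cyclooxygenases and synthases, for Ptges, the synthase that takes up the product of Ptgs2, and for Ptgs1, the other cyclooxygenase, as a contrast. The Ptgs2 stretch is chr1:150099781-150100030 on the plus strand, that of Ptges chr2:30903298-30903547 on the minus strand and that of Ptgs1 chr2:36230176-36230425 on the plus strand. Capitals mark matches to the searched motifs, and the last line is a stretch of 26 bases just after the RefSeq start of Ptgs2, chr1:150100037-150100062.

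Ptgs2: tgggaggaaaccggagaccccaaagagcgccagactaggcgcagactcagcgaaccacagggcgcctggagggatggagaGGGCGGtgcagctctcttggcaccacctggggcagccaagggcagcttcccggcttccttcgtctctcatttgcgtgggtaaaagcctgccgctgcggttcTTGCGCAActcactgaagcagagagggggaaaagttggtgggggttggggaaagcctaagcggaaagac

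Ptges: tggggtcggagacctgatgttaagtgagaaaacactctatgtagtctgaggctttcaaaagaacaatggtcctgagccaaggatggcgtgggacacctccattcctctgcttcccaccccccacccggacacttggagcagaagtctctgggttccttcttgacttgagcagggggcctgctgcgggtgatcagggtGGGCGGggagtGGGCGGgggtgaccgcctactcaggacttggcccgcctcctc

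Ptgs1: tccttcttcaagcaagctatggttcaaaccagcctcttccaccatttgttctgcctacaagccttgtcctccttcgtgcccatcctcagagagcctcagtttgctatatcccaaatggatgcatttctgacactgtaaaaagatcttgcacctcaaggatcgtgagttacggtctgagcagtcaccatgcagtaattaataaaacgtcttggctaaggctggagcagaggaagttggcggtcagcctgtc

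Ptgs2 after the start: accactaCGTCACGTGgagtccgctt

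The search covered 250 bases before and 50 after each start, on both strands, in 32851 RefSeq promoters. The TATA box was searched as TATAAA, which 13.6% of all these promoters held. The E-box was searched as CACGTG, held by 7.15%. The core of the cAMP response element was searched as TGACG, held by 20.8%. The AP-1 site was searched as TGANTCA, held by 7.81%. The C/EBP site was searched as TTGCGCAA, which 0.183% held. The GC box was searched as GGGCGG, held by 35.7%, and the EGR1 site as GCGTGGGCG, held by 0.612%. Ptgs2 held a GC box that began 170 bases before the start and the C/EBP letters 69 bases before it. It also held the cAMP response core 14 bases and the E-box 17 bases after the start, and these overlap each other in the run CGTCACGTG. The count files place the start of Ptgs2 further downstream, so that this stretch of 26 bases ends 62 bases before it. Ptges held GC boxes that began 53 and 42 bases before its start, and Ptgs1 held none of these letters in this window. Among the others, Ptgds held AP-1 letters 35 bases before its start, Alox5 a GC box 35 bases before it and Alox12 GC boxes 55 and 22 bases before and 42 bases after it. Hpgd held a GC box 50 bases before and the TATA letters 5 bases after its start, and Pla2g4a the TATA letters 200 bases before one of its 2 RefSeq starts. These are matches of letters and were not tested as binding sites.

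**Figure D1:**
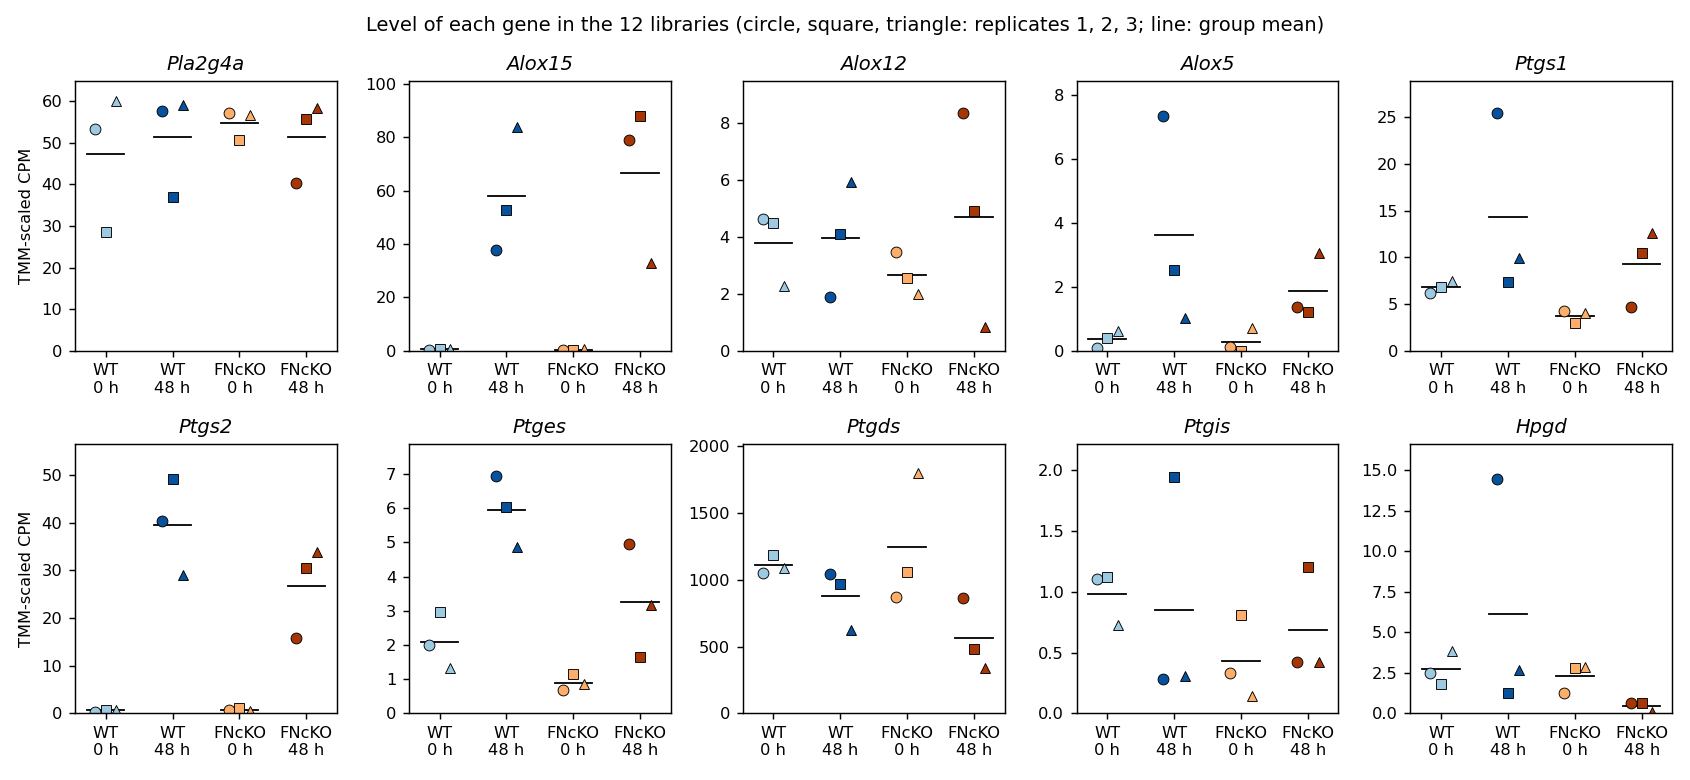
Level of each of the 10 genes in the 12 libraries as TMM-scaled CPM on a linear axis, with 1 panel per gene, 1 symbol per library and a line at each group mean. The 48 h libraries of Alox15 and Ptgs2 lie far above all 0 h libraries in both genotypes, while those of Pla2g4a lie among them.

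Release of arachidonic acid came first in the order of roles. Pla2g4a (chromosome 1, 149829622 to 149961284, minus strand, mm10) was not called over time in either genotype, which does not show it to be unchanged. It stood at 53.4, 28.6 and 60.1 CPM in the WT 0 h libraries and at 57.7, 37.0 and 59.1 in those at 48 h. In FNcKO it stood at 57.1, 50.6 and 56.8 CPM at 0 h and at 40.4, 55.7 and 58.3 at 48 h. The second WT replicate was the lowest of its group at both times, and the groups overlapped throughout. The log2 change over time was 0.12 (SE 0.26) in WT and -0.09 (SE 0.26) in FNcKO, where each SE here is the size of the log2 value divided by the root of its F statistic, an approximation.

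Of the lipoxygenases, Alox15 differed most over time. It lies on chromosome 11 from 70344147 to 70352031 (minus strand, mm10) and encodes the enzyme that in the mouse makes mainly hydroxy acids of the kind found in macrophages and eosinophils. WT libraries at 0 h held 4, 5 and 5 counts of it, or 0.401, 0.510 and 0.602 CPM, and those at 48 h held 395, 543 and 807, or 37.6, 52.8 and 83.7 CPM. FNcKO libraries at 0 h held 2, 3 and 4 counts, or 0.224, 0.346 and 0.574 CPM, and those at 48 h held 748, 805 and 312, or 79.0, 87.9 and 33.0 CPM. At 0 h the gene was thus near the floor of 3 counts, and no 48 h library overlapped a 0 h library. The fitted log2 change was 6.82 (SE 0.51), or 113-fold, in WT and 7.45 (SE 0.54), or 175-fold, in FNcKO. The lowest 48 h library was replicate 1 in WT, at 37.6 CPM, and replicate 3 in FNcKO, at 33.0 CPM.

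Alox12 and Alox15 lie 88805 bases apart on chromosome 11 with Alox12e between them, but their levels over time were unlike. Alox12 (70241455 to 70255341, minus strand), which encodes the platelet-type lipoxygenase, was at 4.62, 4.49 and 2.29 CPM in WT at 0 h and 1.90, 4.08 and 5.91 at 48 h. FNcKO libraries had 3.47, 2.54 and 2.01 CPM at 0 h and 8.35, 4.92 and 0.846 at 48 h. The 0 h and 48 h libraries overlapped in both genotypes, and the 48 h libraries of FNcKO spread widest. It changed by a log2 of 0.06 (SE 0.63) in WT and 0.81 (SE 0.65) in FNcKO.

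Alox5 (chromosome 6, 116410071 to 116461178, minus strand, mm10) encodes the enzyme that starts leukotriene synthesis and is known from myeloid cells. It was at 0.100, 0.408 and 0.602 CPM in WT at 0 h and 7.33, 2.53 and 1.04 at 48 h. In FNcKO it was at 0.112, 0 and 0.717 CPM at 0 h and 1.37, 1.20 and 3.07 at 48 h. The 48 h libraries lay above the 0 h libraries in both genotypes, and replicate 1 of WT at 48 h stood apart from the other two. The log2 change was 3.28 (SE 0.95) in WT and 2.82 (SE 1.03) in FNcKO. The WT value missed the threshold without that library, at 2.26 (edgeR, adjusted p = 0.113), without WT 0 h replicate 1 (0.0727) and without WT 0 h replicate 2 (0.0618). The FNcKO value did not pass, except with total counts, with DESeq2 and without WT 48 h replicate 1 or FNcKO 0 h replicate 3.

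The cyclooxygenases differed from each other in level over time. Ptgs1, the constitutive form (chromosome 2, 36230426 to 36252271, plus strand, mm10), was at 6.22, 6.84 and 7.47 CPM in WT at 0 h and 25.5, 7.39 and 9.96 at 48 h. In FNcKO it was at 4.25, 3.00 and 4.02 CPM at 0 h and 4.65, 10.5 and 12.6 at 48 h. WT libraries overlapped, FNcKO libraries did not, and replicate 1 of WT at 48 h was again the highest of all. The log2 change was 1.06 (SE 0.44) in WT and 1.30 (SE 0.47) in FNcKO, and neither passed the threshold. Without replicate 1 of WT at 48 h the WT value was 0.35. With total counts in place of TMM both passed (edgeR, adjusted p = 0.0472 in WT and 0.0269 in FNcKO), as did the FNcKO value with DESeq2 (0.0345). The WT value also passed without WT 48 h replicate 2, at 1.38 (edgeR, adjusted p = 0.0311). The FNcKO value did so without WT 48 h replicate 1 (edgeR, adjusted p = 0.0211), WT 48 h replicate 2 (0.0386) or FNcKO 48 h replicate 1 (0.0175). Exons of Ptgs1 overlap Gm43621 on the opposite strand, and since no source used here gives the strand setting of the counting, reads of the 2 genes cannot be told apart.

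Ptgs2, the inducible cyclooxygenase (chromosome 1, 150100124 to 150108012, plus strand, mm10), was near the lower limit at 0 h. It stood at 0.301, 0.816 and 0.723 CPM in WT at 0 h and at 40.3, 49.2 and 29.1 at 48 h. In FNcKO it stood at 0.783, 1.04 and 0.574 CPM at 0 h and at 15.9, 30.6 and 33.7 at 48 h. Every 48 h library lay above every 0 h library, and at 48 h the genotypes overlapped. The log2 change was 5.99 (SE 0.42), or 63.6-fold, in WT and 5.02 (SE 0.41), or 32.5-fold, in FNcKO.

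Among the synthases, Ptges, the inducible prostaglandin E synthase (chromosome 2, 30889471 to 30903297, minus strand, mm10), was higher at 48 h at a low level. It was at 2.01, 2.96 and 1.33 CPM in WT at 0 h and 6.95, 6.03 and 4.88 at 48 h. FNcKO libraries had 0.671, 1.15 and 0.861 CPM at 0 h and 4.97, 1.64 and 3.17 at 48 h. The 0 h and 48 h libraries were separate in both genotypes, although replicate 2 of FNcKO at 48 h came close. Its fitted log2 change was 1.49 (SE 0.47) in WT and 1.85 (SE 0.51) in FNcKO. It dropped out of the threshold without any 1 of 4 WT libraries, namely WT 0 h replicate 1 (edgeR, adjusted p = 0.0697), WT 0 h replicate 3 (0.0974), WT 48 h replicate 1 (0.0824) and WT 48 h replicate 2 (0.0546). In FNcKO it did so without FNcKO 0 h replicate 1 (0.0703) or FNcKO 48 h replicate 1 (0.065), with limma voom (0.0586) and with the 2 groups alone (0.0571).

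Ptgds, which encodes lipocalin-type prostaglandin D synthase, also a carrier protein known from eye and brain, was by far the highest of the 10 genes (chromosome 2, 25466712 to 25469749, minus strand, mm10). It was at 1053, 1189 and 1090.2 CPM in WT at 0 h and 1045, 971.5 and 627 at 48 h. FNcKO libraries held 871, 1062 and 1801 CPM at 0 h and 867, 479.8 and 339.5 at 48 h. No library at 48 h reached the lowest at 0 h in either genotype, but in both the nearest pair was almost level. The log2 change was -0.33 (SE 0.35) in WT and -1.15 (SE 0.35) in FNcKO. The FNcKO value missed the threshold without FNcKO 0 h replicate 3 (edgeR, adjusted p = 0.104), FNcKO 48 h replicate 2 (0.0987) or FNcKO 48 h replicate 3 (0.113).

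Ptgis, the prostacyclin synthase gene (chromosome 2, 167203196 to 167240537, minus strand, mm10), stayed between 0.143 and 1.94 CPM in all 12 libraries. Its log2 change was -0.21 (SE 0.82) in WT and 0.62 (SE 0.91) in FNcKO. Hpgd encodes the dehydrogenase that inactivates prostaglandins and lies on chromosome 8 from 56294552 to 56321046 (plus strand, mm10). It was at 2.51, 1.84 and 3.86 CPM in WT at 0 h and 14.5, 1.26 and 2.70 at 48 h. In FNcKO it was at 1.23, 2.77 and 2.87 CPM at 0 h and 0.634, 0.655 and 0.106 at 48 h. The WT 48 h libraries spread on both sides of the 0 h range, and all 3 FNcKO 48 h libraries lay below every other library. On the log2 scale the change was 1.17 (SE 0.76) in WT and -2.26 (SE 0.91) in FNcKO, and neither passed the threshold. Without replicate 1 of WT at 48 h the WT value was -0.46, on the same side as that of FNcKO. DESeq2 called the FNcKO value (adjusted p = 0.0327). With edgeR that value also passed without WT 48 h replicate 1 (adjusted p = 0.0298) or WT 48 h replicate 2 (0.0473).

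**Figure D2:**
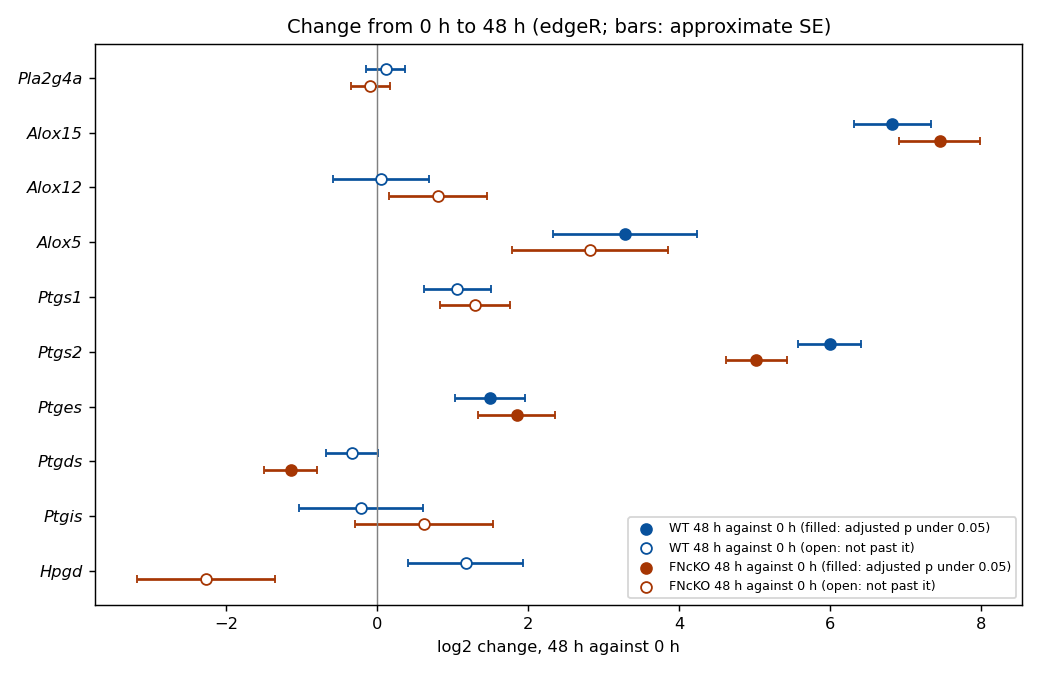
Log2 change from 0 h to 48 h of the 10 genes in WT and FNcKO, with bars for the approximate SE and filled symbols for an adjusted p under 0.05 in edgeR's quasi-likelihood test. Alox15 and Ptgs2 lie between 5.02 and 7.45 in both genotypes, Pla2g4a lies near 0, and the WT value of Hpgd lies above 0 only with replicate 1 of WT at 48 h, without which it is -0.46.

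In WT, 4 of the 10 genes (Alox15, Alox5, Ptgs2 and Ptges) were called higher at 48 h by edgeR's quasi-likelihood test at an adjusted p under 0.05, and 0 were called lower. Over all 14560 genes tested, 19.1% were called higher, 13.5% lower and 32.6% in either direction. In FNcKO, 3 genes (Alox15, Ptgs2 and Ptges) were called higher and 1 (Ptgds) lower, beside 14.9% of all genes called higher, 9.90% lower and 24.8% in either direction. The 0 h and 48 h levels were fully separate for 5 of the 10 genes in WT, beside 51.5% of all tested genes, and for 7 in FNcKO, beside 37.5%. The median log2 change of the 10 genes was 1.12 in WT and 1.05 in FNcKO, and that of all genes tested was 0.02 and 0.00. As the choice of genes knew results of this contrast, nothing is read from these counts.

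Levels can be set against each other after division by the length that the files give as the gene's coding length, as CPM per 1000 bases. In the WT 0 h group Ptgds stood highest at 1380 ± 87.3 (SD, n = 3), followed by Pla2g4a at 16.6 ± 5.84 and Ptgs1 at 2.39 ± 0.218. Hpgd at 1.59 ± 0.598 and Alox12 at 1.27 ± 0.437 followed and did not differ beyond their spread. Ptges, Ptgis, Alox15, Ptgs2 and Alox5 came last, between 0.131 and 0.575. At 48 h in WT, Ptgds at 1095 ± 277 was followed by Alox15 at 24.0 ± 9.74 and Pla2g4a at 18.0 ± 4.34, which overlapped, and then by Ptgs2 at 9.53 ± 2.43 and Ptgs1 at 4.98 ± 3.42. FNcKO at 48 h had the same first 5 in the same order, with Ptgds at 698 ± 340, Alox15 at 27.6 ± 12.2, Pla2g4a at 18.1 ± 3.40, Ptgs2 at 6.45 ± 2.30 and Ptgs1 at 3.22 ± 1.43. Hpgd was last there at 0.270 ± 0.181. On this scale Ptgs2 was below Ptgs1 at 0 h in both genotypes and above it by the mean at 48 h, although the spread of WT Ptgs1 at 48 h was wide.

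Between the genotypes at 48 h, 0 of the 10 genes were called by edgeR, and 1, Hpgd, had an unadjusted p under 0.05, where 0.240% of all genes tested were called. Hpgd was lower in FNcKO in 3 of 3 libraries, with a log2 difference of -3.69 (SE 0.90, edgeR, adjusted p = 0.204). It was the single gene of the 10 whose libraries did not overlap, beside 9.74% of all tested genes. DESeq2 gave -3.74 with an adjusted p of 0.00361. Without replicate 1 of WT at 48 h, at 14.5 CPM, the difference was -2.06 (edgeR, adjusted p = 1). The other 9 genes had log2 differences from -0.95 for Alox5 to 0.25 for Alox12. The difference for Alox15 was 0.20 (SE 0.34) and that for Ptgs2 -0.56 (SE 0.30), each with an adjusted p of 1, which does not show that the genotypes are alike.

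At 0 h the test also called 0 of the 10 genes, beside 0.144% of all genes, and Ptges alone had an unadjusted p under 0.05. Its log2 difference was -1.22 (SE 0.52, edgeR, adjusted p = 0.420), lower in FNcKO in 3 of 3 libraries. Libraries did not overlap for Ptges and Ptgs1, 2 of the 10 genes, while 16.6% of all tested genes did not overlap. Ptgs1 was at 3.76 ± 0.663 CPM (SD, n = 3) in FNcKO and 6.84 ± 0.625 in WT, a log2 difference of -0.86 (SE 0.47, edgeR, adjusted p = 0.500). Averaged over both times, 0 were called beside 0.481% of all genes, and Hpgd (-1.97, adjusted p = 0.220), Ptges (-1.04, adjusted p = 0.283) and Ptgs1 (-0.75, adjusted p = 0.431) had an unadjusted p under 0.05 in edgeR. DESeq2 called 1 of them, Hpgd, at an adjusted p of 0.0370.

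The difference of the 48 h responses, FNcKO minus WT, was called for 0 of the 10 genes and for 0% of all genes in edgeR. Hpgd had the largest, at -3.44 (SE 1.19, edgeR, adjusted p = 0.945), and it was the 1 gene of the 10 with an unadjusted p under 0.05. Without replicate 1 of WT at 48 h it was -1.81. For Alox15 the difference was 0.63 (SE 0.88, adjusted p = 0.95), and for Ptgs2 it was -0.97 (SE 0.61, adjusted p = 0.945). DESeq2 called 28 of all genes here and none of the 10.

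**Figure D3:**
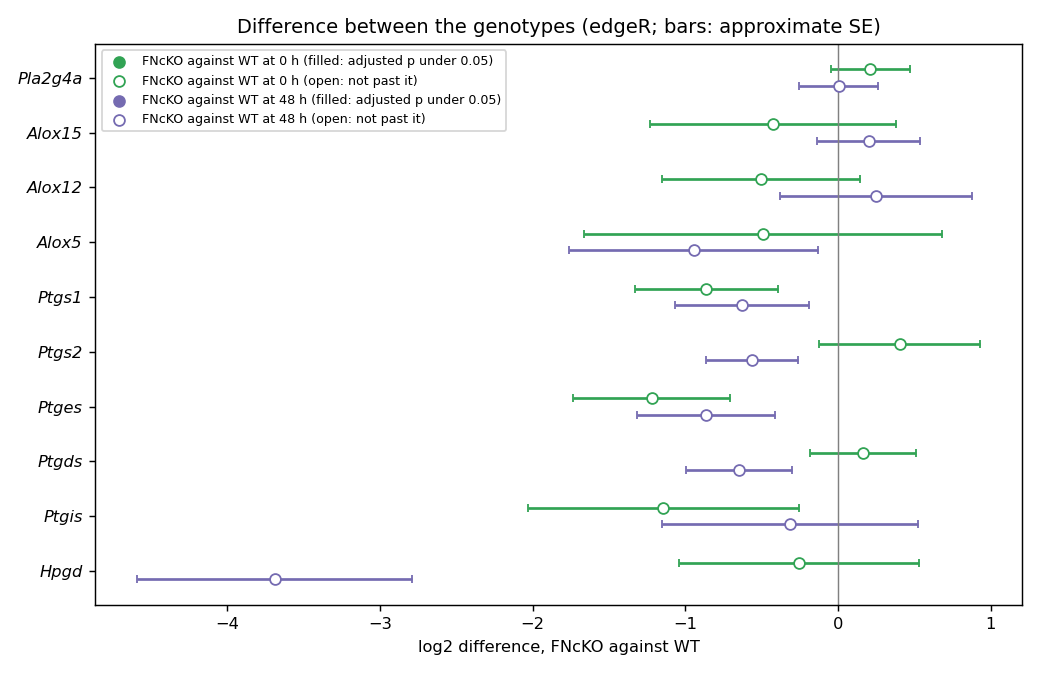
Log2 difference of FNcKO against WT for the 10 genes at 0 h and at 48 h, with bars for the approximate SE and open symbols for genes that missed an adjusted p of 0.05 in edgeR, as all 10 did at both times. Hpgd at 48 h lies at -3.69, and all other values lie between -1.22 and 0.41.

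Markers of other cell types moved with several of these genes, and their part in the values was not tested. The summed level of 12 macrophage and monocyte markers was 73.5, 141.5 and 166 CPM in WT at 0 h and 809.8, 433 and 291 at 48 h. In FNcKO it was 60.6, 98.6 and 121 CPM at 0 h and 193, 288 and 447 at 48 h. All 12 had counts in every group. At 48 h 5 were called higher and 0 lower in WT, and 6 higher and 1, Cx3cr1, lower in FNcKO, beside the shares of all genes given above. Alox15 was lowest in the 48 h library of each genotype with the highest sum, at 37.6 CPM in replicate 1 of WT and 33.0 in replicate 3 of FNcKO. Alox5 was highest in those same libraries, at 7.33 and 3.07 CPM, as was Ptgs1, at 25.5 and 12.6.

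Neutrophil markers, 9 of 10 found in the files, summed to 4.02 to 10.3 CPM at 0 h and to 348, 73.9 and 61.3 at 48 h in WT and 45.5, 41.5 and 112 in FNcKO. At 48 h Mpo and Camp were at 0 in WT, and Elane and Mpo in FNcKO. Platelet and megakaryocyte markers, 7 of 7 found, summed to 3.51 to 9.90 CPM at 0 h and 24.9 to 104 at 48 h, while Alox12 showed no such difference. At 48 h Gp6 and Treml1 were at 0 in both genotypes, and Gp9 was at 0 in FNcKO. The test covered 4 of the 7 and called 3 higher and 0 lower in WT. In FNcKO it called 2 of the 4 higher and 1 lower, beside the shares of all genes given above. Eosinophil markers, 7 of 7 found, summed to 0.447 to 2.41 CPM at 0 h and 1.45 to 8.25 at 48 h. Of these 7, the granule genes Prg2, Ear1 and Ear2 were at 0 in all 48 h libraries, the granule gene Epx was at 0.104 CPM in replicate 3 of WT and 0.634 in replicate 3 of FNcKO and at 0 in the other 48 h libraries, and Siglec5 was at 0 in all 0 h libraries and between 0.830 and 5.81 CPM in those at 48 h. The test covered 2 of the 7 and called 1 higher in each genotype, beside the shares of all genes given above. Mast cell markers, 6 of 6 found, summed to 10.3 to 24.9 CPM at 0 h and 2.33 to 15.2 at 48 h, with Fcer1a at 0 in every group. Cpa3, Mcpt4, Cma1 and Tpsb2 were at 0 in FNcKO at 48 h, so that Kit alone made up the sum there. In FNcKO at 0 h only Kit and Mcpt4 had counts. The test covered 1 of the 6 and called it lower in FNcKO and not in WT, beside the shares of all genes given above.

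Pigment cell markers, 8 of 8 found, summed to 234 to 353 CPM in WT at 0 h and 188 to 448 at 48 h. In FNcKO they summed to 180 to 217 CPM at 0 h and 44.7 to 94.2 at 48 h, and Ptgds was lower in that group as well. Over time 2 of the 8 were called higher and 3 lower in WT, beside the shares of all genes given above. In FNcKO 0 were called higher and 3 lower. Between the genotypes at 48 h, 3 were called lower in FNcKO and 0 higher, beside 29 lower and 6 higher of all 14560 genes. Ptgds was not called there (log2 -0.65, SE 0.35). Within FNcKO at 48 h the libraries ordered by Ptgds stood in the order of the pigment sum, 94.2, 52.0 and 44.7 CPM, and also of the lens fiber sum, 29260, 13599 and 1972. In FNcKO at 0 h the lens fiber sums of 42744, 48917 and 91207 had the order of Ptgds, while the pigment sum was lowest, at 180 CPM, in the library with the most Ptgds. WT libraries at 48 h had the order of the pigment sum and not that of the lens fiber sum. WT libraries at 0 h had neither order, with Ptgds at 1053, 1189 and 1090.2 CPM. Their pigment sums were 285, 353 and 234 CPM, and their lens fiber sums of 58866, 33095 and 42209 had the reverse of the Ptgds order. These orders of 3 libraries were not tested. The 8 endothelial markers summed to 35.3 to 125 CPM at 0 h and 67.7 to 153 at 48 h. Corneal epithelium markers, 6 of 6 found, summed to 742 to 1116 CPM in WT and 1783 to 2667 in FNcKO at 0 h, and to 364 to 986 and 699 to 1347 at 48 h, with Krt14 at 0 in WT at 0 h. Aldh3a1 alone made up nearly all of this sum, 1107 of 1116 CPM in WT 0 h replicate 1 and 2650.4 of 2667 in FNcKO 0 h replicate 1.

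**Figure D4:**
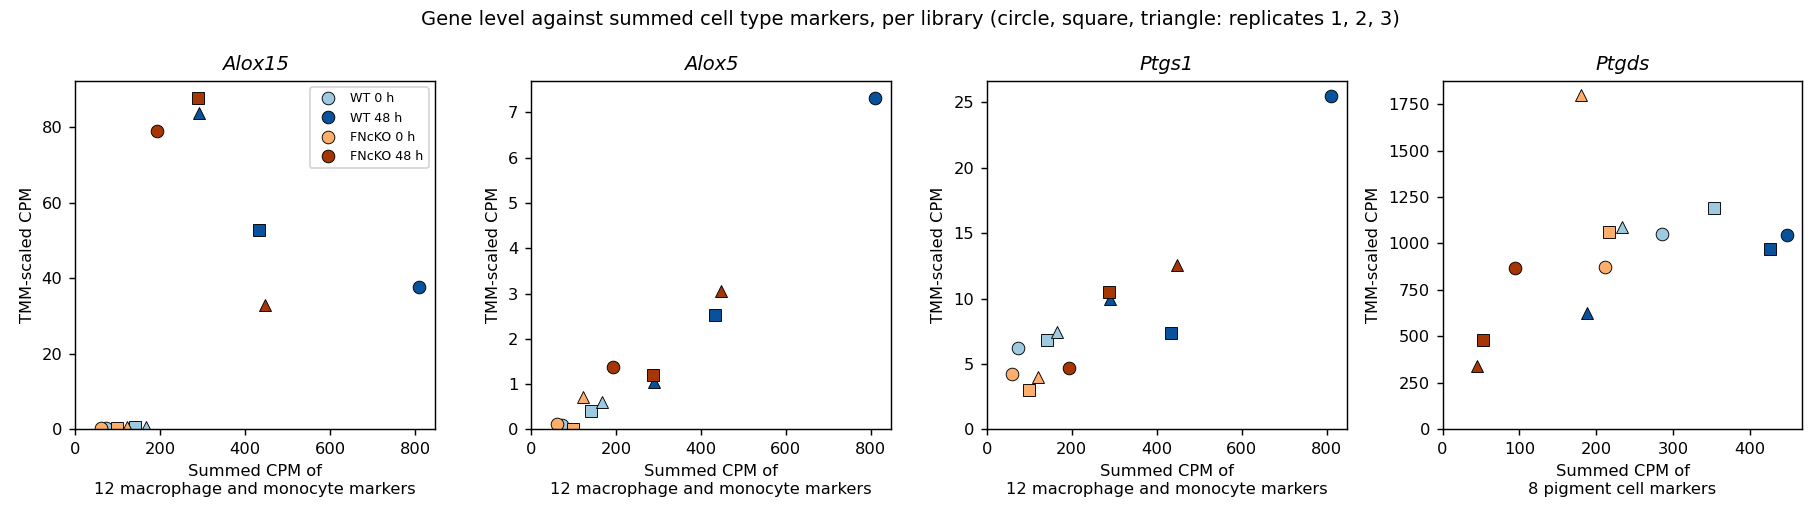
Level of Alox15, Alox5 and Ptgs1 against the summed level of 12 macrophage and monocyte markers, and of Ptgds against that of 8 pigment cell markers, as TMM-scaled CPM on linear axes with 1 symbol per library. Alox5 and Ptgs1 are highest in the library with the highest marker sum, 809.8 CPM, while Alox15 at 48 h is highest at sums of 193 to 291.

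Across the 12 libraries the closest pair among the 10 genes was Alox15 and Ptgs2, with a Pearson r of 0.97 of log2 CPM. The next were Alox5 with Ptgs2 at 0.83 and Alox5 with Ptgs1 at 0.80. Ptgds went with Ptgs2 at -0.63 and with Hpgd at 0.66. These coefficients describe 12 libraries that share 2 times and 2 genotypes, and most of the r of Alox15 and Ptgs2 comes from the gap between the times. Of all genes tested, the 5 most like Alox15 were Gpc1, Tgfbi, Itga7, Cdsn and Bcl3, each with r = 0.98, and 115 genes had an r over 0.95. In WT, Tgfbi, a matrix protein, stood at 20.5 ± 5.69 CPM at 0 h and 858 ± 311 at 48 h (SD, n = 3), and Bcl3 at 0.571 ± 0.0532 and 42.6 ± 3.17. Those most like Ptgs2 were Fxyd5, Il1rn, Plat, Ifi205 and Spp1, each with r = 0.99, and 284 genes had an r over 0.95. Il1rn, the interleukin-1 receptor antagonist, stood at 0.398 ± 0.171 CPM in WT at 0 h and 60.0 ± 36.2 at 48 h, and Spp1, osteopontin, at 5.36 ± 1.90 and 676 ± 206.

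The other genes of the pathway were taken from 5 lists with 67 genes, of which 47 could be tested. Of these, 17 rose and 4 fell from 0 h to 48 h in WT, and 13 rose and 8 fell in FNcKO. Calls are by edgeR's quasi-likelihood test at an adjusted p under 0.05. Of all genes tested, 19.1% were called higher and 13.5% lower in WT, and 14.9% and 9.90% in FNcKO. The counts of each list below stand beside these shares. The lists were chosen with earlier results of these data known, so their values over time are a description and nothing is read from the counts. The median log2 change of the 47 was 0.22 in WT and 0.54 in FNcKO.

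Among 13 tested phospholipases and fatty acid handling genes, 1 rose and 1 fell in WT, and 1 rose and 3 fell in FNcKO. Acsl4, which couples arachidonic acid to coenzyme A, rose from 23.9 ± 2.46 to 91.6 ± 40.9 CPM in WT (log2 1.94, edgeR, adjusted p = 0.00554) and from 21.6 ± 6.34 to 60.9 ± 29.0 in FNcKO (log2 1.49, adjusted p = 0.0252). Pla2g16, a phospholipase known to act in the loss of lens organelles, fell by 1.14 on the log2 scale in WT and by 0.91 in FNcKO. Pla2g5 fell by 1.46 and Pla2g12a by 1.04 in FNcKO, both secreted phospholipases. In WT these 2 had log2 values of -0.58 and -0.86 that did not pass, and the difference of the responses was not called for either. The FNcKO calls of Acsl4 and Pla2g12a each held in 13 of 20 alternatives, both lost with the replicate block, and that of Pla2g16 in 19. The number that rose ran from 0 to 2 in FNcKO, and the number that fell from 1 to 3 in WT and 1 to 4 in FNcKO. Pla2g4e was the 1 pathway gene called between the genotypes, lower in FNcKO over both times (log2 -3.35, SE 0.55, edgeR, adjusted p = 0.0149). It was at 3.08 ± 0.826 CPM in WT and at 0, 0.231 and 0.143 in FNcKO at 0 h, and at 0.571, 1.75 and 1.76 in WT and 0.211, 0.437 and 0.211 in FNcKO at 48 h. The genotypes did not overlap at either time, and the call was lost without WT 0 h replicate 2 and without both 0 h replicate 1 libraries, with a largest adjusted p over the alternatives of 0.105.

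Of 10 tested genes of the lipoxygenase and leukotriene pathway, 3 rose and 1 fell in WT, and 3 rose and 2 fell in FNcKO. Alox5ap, the partner protein of Alox5, rose from 1.48 ± 0.239 to 17.2 ± 9.80 CPM in WT (log2 3.52, edgeR, adjusted p = 0.000270) and from 0.748 ± 0.352 to 8.15 ± 2.92 in FNcKO (log2 3.44, adjusted p = 0.000764). Cyp4f18, which oxidises leukotriene B, had 0 counts in the 3 WT 0 h libraries and 13.99, 4.57 and 3.42 CPM at 48 h, at least 22.7-fold higher than a floor of 3 counts per library. In FNcKO its fitted log2 change was 6.71. Dpep2, a dipeptidase of cysteinyl leukotrienes, rose by 3.05 and 2.88, and its FNcKO call held in 13 of 19 alternatives. Ggt1, a gamma-glutamyl transferase, fell by 1.87 in WT and by 1.79 in FNcKO, and its relative Ggt5 fell by 2.30 in FNcKO, with a WT value of -1.15 that did not pass.

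Of 8 other prostanoid synthase genes tested, 5 rose and 0 fell in WT, and 2 rose and 2 fell in FNcKO. Akr1b8, an aldo-keto reductase, rose from 0.393 ± 0.409 to 6.05 ± 4.16 CPM in WT (log2 3.90) and from 0.469 ± 0.317 to 12.6 ± 7.76 in FNcKO (log2 4.75). Tbxas1, the thromboxane synthase, rose by 2.05 in WT, and its FNcKO value of 1.10 did not pass (edgeR, adjusted p = 0.0678). Ptges2 rose by 1.17 and Ptges3l by 2.24 in WT, but the call of Ptges3l held in 9 of 20 alternatives. Ptges3, the cytosolic prostaglandin E synthase and a chaperone partner, rose from 62.9 ± 1.67 to 139 ± 15.3 CPM in WT (log2 1.14) and by 0.89 in FNcKO. Fam213b, a prostaglandin F synthase gene, fell by 1.27 in FNcKO and Cbr1, a carbonyl reductase, by 1.02, and the call of Fam213b held in 13 of 20 alternatives. For none of these was the difference of the responses called by edgeR.

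Of 7 genes of transport and breakdown, 2 rose and 1 fell in WT, and 3 rose and 1 fell in FNcKO. Slco2a1, the prostaglandin transporter, rose from 12.1 ± 6.72 to 67.7 ± 23.1 CPM in WT (log2 2.48, edgeR, adjusted p = 0.0208), and stood at 24.8 ± 21.6 and 96.3 ± 48.5 in FNcKO (log2 1.97, adjusted p = 0.0570). Leaving out replicate 2 of WT at 0 h, or replicate 3 of WT at 48 h, took its WT call away, with an adjusted p of at most 0.0599. Ptgr1, which reduces prostaglandin and leukotriene metabolites, rose by 2.07 and 1.86. Ephx2, the soluble epoxide hydrolase, fell from 59.0 ± 4.29 to 21.2 ± 5.55 CPM in WT (log2 -1.47) and from 64.4 ± 12.8 to 24.7 ± 6.88 in FNcKO (log2 -1.38). Cbr3 rose by 2.37 and Abcc4, an efflux pump, by 0.58 in FNcKO. At 0 h in FNcKO, Cbr3 stood at 0.335, 0.115 and 0.143 CPM, at or below the level of 3 counts. Its fitted value is therefore no measure of size. The FNcKO calls held in 11 of 19 alternatives for Cbr3, 5 of 20 for Abcc4 and 15 of 20 for Ptgr1, and the number of genes of this list that rose in FNcKO ran from 0 to 4.

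Of 9 receptors tested, 6 rose and 1 fell in WT, and 4 rose and 0 fell in FNcKO. Over the alternatives, 2 to 7 rose in WT and 2 to 4 in FNcKO. Ltb4r1, the high-affinity leukotriene B receptor, rose from 0.0742 ± 0.0649 to 4.89 ± 4.55 CPM in WT (log2 5.85) and from 0.0863 ± 0.0760 to 2.23 ± 1.48 in FNcKO (log2 4.55). Its 0 h means lay below the level of 3 counts, so these fitted values are no measure of size. Fpr2, a receptor for lipoxin and for formyl peptides, rose by 4.13 and 4.94, and Cmklr1, a chemerin receptor also linked to resolvins, by 2.39 and 2.82. Ptgir, the prostacyclin receptor, rose by 3.51 and Cysltr1, a cysteinyl leukotriene receptor, by 2.64 in WT, where their 48 h means were 1.34 ± 0.407 and 4.88 ± 3.34 CPM. For Ptgir such a rise starts from a 0 h level below 3 counts, so its fitted value is no measure of size. Ptger4, a prostaglandin E receptor, had 0 counts in the 3 FNcKO 0 h libraries and 1.37, 1.97 and 2.01 CPM at 48 h, at least 4.81-fold higher than a floor of 3 counts per library. It rose by 2.29 in WT. Ptger1 was the 1 receptor that fell in WT, by 0.58, and is named after its value was seen. In WT the calls held in 9 of 20 alternatives for Ptger1, 12 for Ptgir, 15 each for Cysltr1 and Ptger4 and 17 for Fpr2, and in FNcKO in 16 of 20 for Fpr2 and 18 of 19 for Ltb4r1. Replicate 1 of WT at 48 h, with the highest macrophage and neutrophil sums, held the most Ltb4r1 (10.1 CPM) and Fpr2 (20.0 CPM), and what part those cells had was not tested.

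**Figure D5:**
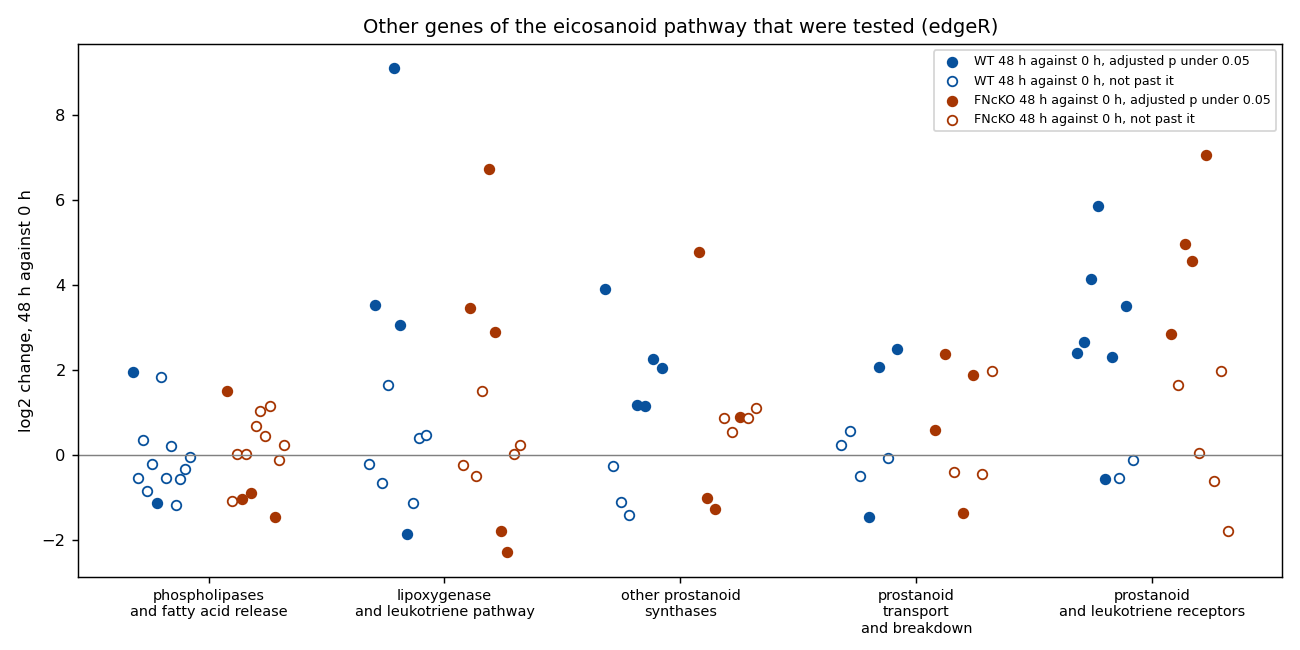
Log2 change from 0 h to 48 h of the 47 tested genes of the 5 pathway lists in WT and FNcKO, with filled symbols for an adjusted p under 0.05 in edgeR. The highest WT point, Cyp4f18, and the highest FNcKO point, Ptger4, are genes with 0 counts at 0 h, so their fitted height is no measure of size.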

How the data were processed

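RNA was read from 12 libraries in 4 groups of 3. The authors deposited, per the file headers, a whole-number read count and an RPKM value for each of 24147 genes with coordinates and a length. Build mm10 and these tools are named by the submitters' processing notes, without roles: HTSeq 0.6.1p1, edgeR 3.16.5, TopHat2 2.1.0, Trim Galore 0.4.4, SAMtools 1.4, bedtools 2.17 and FastQC. No source used here gives the annotation or strand setting. The deposited RPKM equals the count per 1000 bases of that length and per 1000000 summed counts, to within a relative difference of 1.37e-14, and served only this check. A combined table of 9 libraries was read only to compare its columns with the library files.

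The counts were fitted by edgeR 4.0.16 (R 4.3.3), with filterByExpr (14560 genes left), TMM factors (0.754 to 1.165), robust quasi-likelihood fits with 4 group means and Benjamini-Hochberg adjustment over all tested genes. Correlations used log2 CPM with a prior count of 2. Some 163 entries with a repeated symbol were kept apart. Code was tested on simulated data. Alternatives were total counts and RLE scaling, no filter, DESeq2 1.42.0, limma 3.58.1 (voom), the 2 compared groups alone, the replicate number as a block, leaving out each library, and leaving out both 0 h replicate 1 libraries, since the combined table's column for one equals the file of the other.

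The members and gene lists were chosen with earlier results of these data known. All 10 members are named. From each pathway list, the up to 4 called genes with the largest absolute log2 change over time are named, and every one called between genotypes. Of the marker symbols, Ly6g was not matched, and Adgre1 and Siglecf were matched as Emr1 and Siglec5. P-values set differences of group means against the spread between these libraries, whose animals are not described.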

Additional observations from a re-analysis of the deposited data

How the results depend on the processing

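Alox15 and Ptgs2 were past the threshold over time in both genotypes under all 20 alternatives, with log2 changes of 6.46 to 7.06 and 5.65 to 6.25 in WT and 7.17 to 7.78 and 4.82 to 5.30 in FNcKO. Total counts in place of TMM shifted the median of all genes over time by 0.21 in WT and 0.28 in FNcKO. With 3 libraries a group, a gene that missed the threshold is not shown to be unchanged, and genes near 3 counts, such as Ptgis and Alox5 at 0 h, are the least certain.

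Whether the replicate numbers pair the samples is not known. Same-numbered libraries' deviations from their group means correlated from -0.47 to 0.29, which in groups of 3 cannot exclude a pairing. With the replicate block, 4184 genes in place of 4745 were called over time in WT and 3048 in place of 3611 in FNcKO, the members called stayed at 4 higher in WT and 3 higher in FNcKO, and the difference of the responses called 1 gene in place of 0.

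Members called higher over time were 5 in WT with total counts, and in FNcKO 5 with total counts, 5 with DESeq2, 2 with voom and 2 with the 2 groups alone, and those called lower in FNcKO 0 with total counts, 2 with DESeq2 and 0 with the 2 groups alone. Between the genotypes at 48 h, DESeq2 called 1 member lower (Hpgd) and 122 of all genes in place of 35, voom 22 and the 2 groups alone 7. At 0 h, all genes called were 10 with total counts, 130 with DESeq2 and 7 with voom in place of 21. The difference of the responses had 28 with DESeq2. Over both times, DESeq2 called 1 member lower and 288 genes in place of 70. Without both 0 h replicate 1 libraries, 2 members were higher in WT over time, and all genes called were 2299 in FNcKO over time, 14 at 48 h, 2 at 0 h and 17 over both times. The cause was not tested, except that fewer libraries enter.

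Signs turned for values near 0 that were not called under any of these settings. Pla2g4a was 0.20 over time in FNcKO, -0.077 at 48 h and -0.00268 over both times with total counts, and at 48 h -0.00174 with RLE, -0.00900 with no filter and -0.00175 with DESeq2. Alox12 was -0.0663 in WT over time and -0.106 at 48 h with voom, and -0.0535 at 48 h with the replicate block. Ptgis was 0.0660 at 48 h with voom, Ptgds -0.0397 at 0 h with total counts, and Alox5 0.25 for the difference of the responses with voom.

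Leaving out each library in turn gave these ranges. Members called higher were 2 to 4 in WT and 2 to 5 in FNcKO over time, and lower 0 to 2 in FNcKO. All genes called were 2232 to 4095 in FNcKO over time, 10 to 46 at 48 h, 2 to 28 at 0 h, 0 to 1 for the difference of the responses and 34 to 81 over both times. In WT over time, log2 values ran from -0.18 to 0.32 for Pla2g4a, -0.34 to 0.39 for Alox12, -1.68 to 0.20 for Ptgis and -0.46 to 1.66 for Hpgd, and in FNcKO from -0.19 to 0.0549 for Pla2g4a and -0.0507 to 1.41 for Ptgis. At 48 h they ran from -0.18 to 0.15 for Pla2g4a, -0.0506 to 0.56 for Alox15, -0.46 to 0.74 for Alox12, -1.49 to 0.0732 for Alox5, -0.94 to 0.0901 for Ptgs1 and -0.98 to 1.15 for Ptgis. At 0 h they ran from -0.0546 to 0.42 for Pla2g4a, -2.42 to 0.12 for Alox5, -0.19 to 0.37 for Ptgds and -0.49 to 0.0698 for Hpgd. For the difference of the responses they ran from -0.42 to 0.0494 for Pla2g4a, -1.06 to 1.46 for Alox5, -0.0812 to 0.95 for Ptgs1 and -0.0842 to 0.67 for Ptges. Over both times they ran from -0.0299 to 0.21 for Pla2g4a, -0.29 to 0.0678 for Alox15, -0.48 to 0.12 for Alox12, -0.25 to 0.0547 for Ptgs2 and -1.13 to 0.0047 for Ptgis.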

Other observations

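Of the 67 pathway genes, 20 had too few counts to be tested, 2 of them with no count in any library. Pla2g2e, a secreted phospholipase gene, had 0 counts in all 6 libraries at 0 h and stood at 1.81, 0.972 and 0.311 CPM in WT and 0.528, 0.764 and 3.07 in FNcKO at 48 h. Against a floor of 3 counts per library, its 48 h mean was at least 3.19-fold higher in WT and at least 3.92-fold higher in FNcKO. Ptger3, a prostaglandin E receptor gene, was at 4.76, 4.28 and 0.726 CPM in WT at 48 h, and at 0.528, 0 and 0 in FNcKO. Ltc4s, the leukotriene C synthase gene, stayed between 0 and 1.16 CPM in all 12 libraries. Alox12e, which lies between Alox12 and Alox15, ran from 0 to 6.88 CPM without a pattern by group, with 6.88 in FNcKO 0 h replicate 3 and 4.54 in FNcKO 48 h replicate 1. These genes were picked from the lists after their values were seen.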
